A study of Homo sapiens with 12 samples.

Results

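Complement is a cascade of plasma proteases that coats targets with fragments of C3 and can end in a pore in their membrane. The 8 genes described here encode receptors and regulators of that cascade: CR1, CR2, C3AR1, C5AR1, CFP, CD46, CD55 and CD59. They were picked by symbol from the 60648 genes of the deposited count tables, and the reason for the choice was a rise of CR1 after PU.1 knockdown. The PU.1 comparison is therefore described for these genes without a p-value. All 8 symbols were found in both tables.

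The libraries came from MOLM13 and OCIAML5, established human lines of acute myeloid leukemia infected with lentiviruses that express short hairpin RNAs. MOLM13, grown in RPMI medium with 10% serum, carried a control hairpin (2 libraries) or a hairpin against PSPC1, a protein that binds RNA in paraspeckles of the nucleus (2 libraries). OCIAML5, grown in α-MEM with 20% serum and 10 ng/mL GM-CSF, carried a control hairpin or a hairpin against PSPC1 in the PSPC1 experiment (2 libraries each). In a second experiment OCIAML5 carried a control hairpin or one against SPI1, which encodes PU.1, a transcription factor of myeloid and B cells (2 libraries each). Infected cells were taken by puromycin or by sorting for GFP, and the labels do not say which applied to a library. Nor do they tell whether libraries of 1 group stem from different cultures or hairpins. The p-values thus reflect the spread of these libraries alone, which may be technical.

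CR1 binds the C3b and C4b fragments, clears coated particles and also shortens the life of the enzymes that cleave C3. CR2 is the receptor of B cells for the C3d fragment, and C3AR1 and C5AR1 are receptors for the small peptides C3a and C5a, which attract and activate myeloid cells. CFP encodes properdin, a secreted protein that stabilises the C3-cleaving enzyme of the alternative pathway and is made by myeloid cells. CD46 helps factor I to cut C3b and C4b, CD55 takes the C3-cleaving enzymes apart, and CD59 keeps the final pore from forming. CD55 and CD59 are held in the membrane by a glycosylphosphatidylinositol (GPI) anchor.

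CR1, CR2, CD55 and CD46 lie in 1 cluster on GRCh38 chromosome 1, all on the plus strand. The cluster runs from CD55 (207321376 to 207386804) through CR2 (207454230 to 207489895) and CR1 (207496147 to 207641765) to CD46 (207752057 to 207795513). C3AR1 is on chromosome 12 (8058302 to 8066471), C5AR1 on chromosome 19 (47290023 to 47322066), CFP on chromosome X (47623172 to 47630305) and CD59 on chromosome 11 (33703010 to 33736491). PU.1 belongs to the ETS family, whose members bind DNA around the letters GGAA. The 250 bases before a RefSeq start (GRCh38.p14) are shown for CR1, the gene behind the choice, and for CD46, another gene of the cluster. They are also shown for CD59, the member that rose after PSPC1 knockdown in both lines. Capitals mark GGAA or, read on the other strand, TTCC.
CR1, chr1:207495907-207496156, plus strand: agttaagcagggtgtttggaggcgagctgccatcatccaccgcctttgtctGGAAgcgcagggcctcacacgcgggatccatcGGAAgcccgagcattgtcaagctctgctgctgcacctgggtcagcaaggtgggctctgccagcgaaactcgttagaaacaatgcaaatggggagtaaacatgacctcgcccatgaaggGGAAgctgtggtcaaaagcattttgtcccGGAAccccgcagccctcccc
CD46, chr1:207751804-207752053, plus strand: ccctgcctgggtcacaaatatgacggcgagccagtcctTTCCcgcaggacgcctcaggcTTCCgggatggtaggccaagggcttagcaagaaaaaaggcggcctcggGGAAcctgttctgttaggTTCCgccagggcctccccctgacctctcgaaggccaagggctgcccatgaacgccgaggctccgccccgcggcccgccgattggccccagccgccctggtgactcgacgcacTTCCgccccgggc
CD59, chr11:33736480-33736729, minus strand: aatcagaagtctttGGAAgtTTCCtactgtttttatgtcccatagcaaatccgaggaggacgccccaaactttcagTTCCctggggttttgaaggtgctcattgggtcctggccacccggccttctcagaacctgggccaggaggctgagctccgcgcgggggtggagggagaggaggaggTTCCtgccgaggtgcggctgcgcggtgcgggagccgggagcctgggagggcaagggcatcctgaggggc

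CD59 has 4 RefSeq windows, CD46 and CFP have 2 each and the other members 1. The window nearest the GENCODE v29 gene start was used. That of C5AR1 (chr19:47309611-47309860) lies inside the gene and not at this start (47290023). The window of CR1 held 4 such sites, that of CD46 held 5 and that of CD59 held 4. The windows of the other members held 1 site (CR2, CD55), 3 (C3AR1), 5 (C5AR1) and 8 (CFP). Of 35116 promoter windows of this length, 92.7% held at least 1 site on either strand and the median was 3. The longer form GAGGAA, which contains GGAA, was found in 23.6% of all windows and among the members in that of C5AR1 alone, with 2 sites. A match of letters is a description and not a binding site.

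CPM levels are counts relative to the scaled library size; a mean is printed with its SD over the 2 libraries of a group (n = 2). Libraries held 15.4 to 22.8 M counts in the PSPC1 experiment, and those of the PU.1 experiment 26.3 to 39.7 M. The targeted genes fell where the labels say so: PSPC1 was at 98.8 to 135 CPM in the controls and 18.9 to 27.7 CPM after its knockdown, and SPI1 fell from 204 and 227 CPM in control cells to 46.2 and 47.5 CPM with its own knockdown. Both also moved where they were not targeted: PSPC1 was at 110 CPM on average in the second set of controls and 59.0 CPM with PU.1 knocked down (log2 fold change -0.89), and mean SPI1 went from 250 to 339 CPM in MOLM13 with PSPC1 knocked down (0.44), both called (adjusted p of at most 7.9e-11). Of 9 myeloid identity genes only ANPEP stayed under 10 counts in every library. Of 13 neutrophil genes 8 and of 11 red-cell genes 9 stayed under 10 counts everywhere. The summed level of the 13 was still 223 CPM in MOLM13 controls, 252 to 253 CPM after knockdown and 101 to 125 CPM in OCIAML5. A library held 10 counts or more of only 2 to 4 of the 13, so this sum rests on few genes. Of 7 T-cell and NK-cell genes 3 and of 6 megakaryocyte genes 3 stayed under 10 counts. The T-cell and NK-cell sum was 22.2 to 25.1 CPM in MOLM13 controls and 10.0 to 10.4 CPM after knockdown. It was at most 5.84 CPM in OCIAML5, and the megakaryocyte sum was 3.64 to 16.1 CPM over all libraries. Of 9 B-cell genes MS4A1 was at 0 and 4 in all stayed under 10 counts. Single libraries held 10 counts or more of 2 to 5 of the 9. Their summed level was 36.8 to 37.4 CPM in the OCIAML5 controls and 14.9 to 15.7 CPM with PSPC1 knocked down. It was 9.59 to 10.2 CPM in controls and 3.16 to 3.46 CPM after knockdown in the PU.1 experiment, and 4.39 to 6.99 CPM over the MOLM13 libraries. The summed level of 10 monocyte genes was 520 to 529 CPM in the control libraries made alongside PU.1 knockdown and 37.4 to 38.3 CPM in the knockdown itself. In the PSPC1 experiment that sum was 1088 to 1098 CPM in OCIAML5 controls and 605 to 608 CPM after knockdown, and in MOLM13 413 to 421 CPM in controls and 557 to 572 CPM after knockdown. The part of these shifts in the results was not tested. RNA per cell is not known, so fewer cells of a type and less RNA per cell cannot be told apart.

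**Figure D1:**
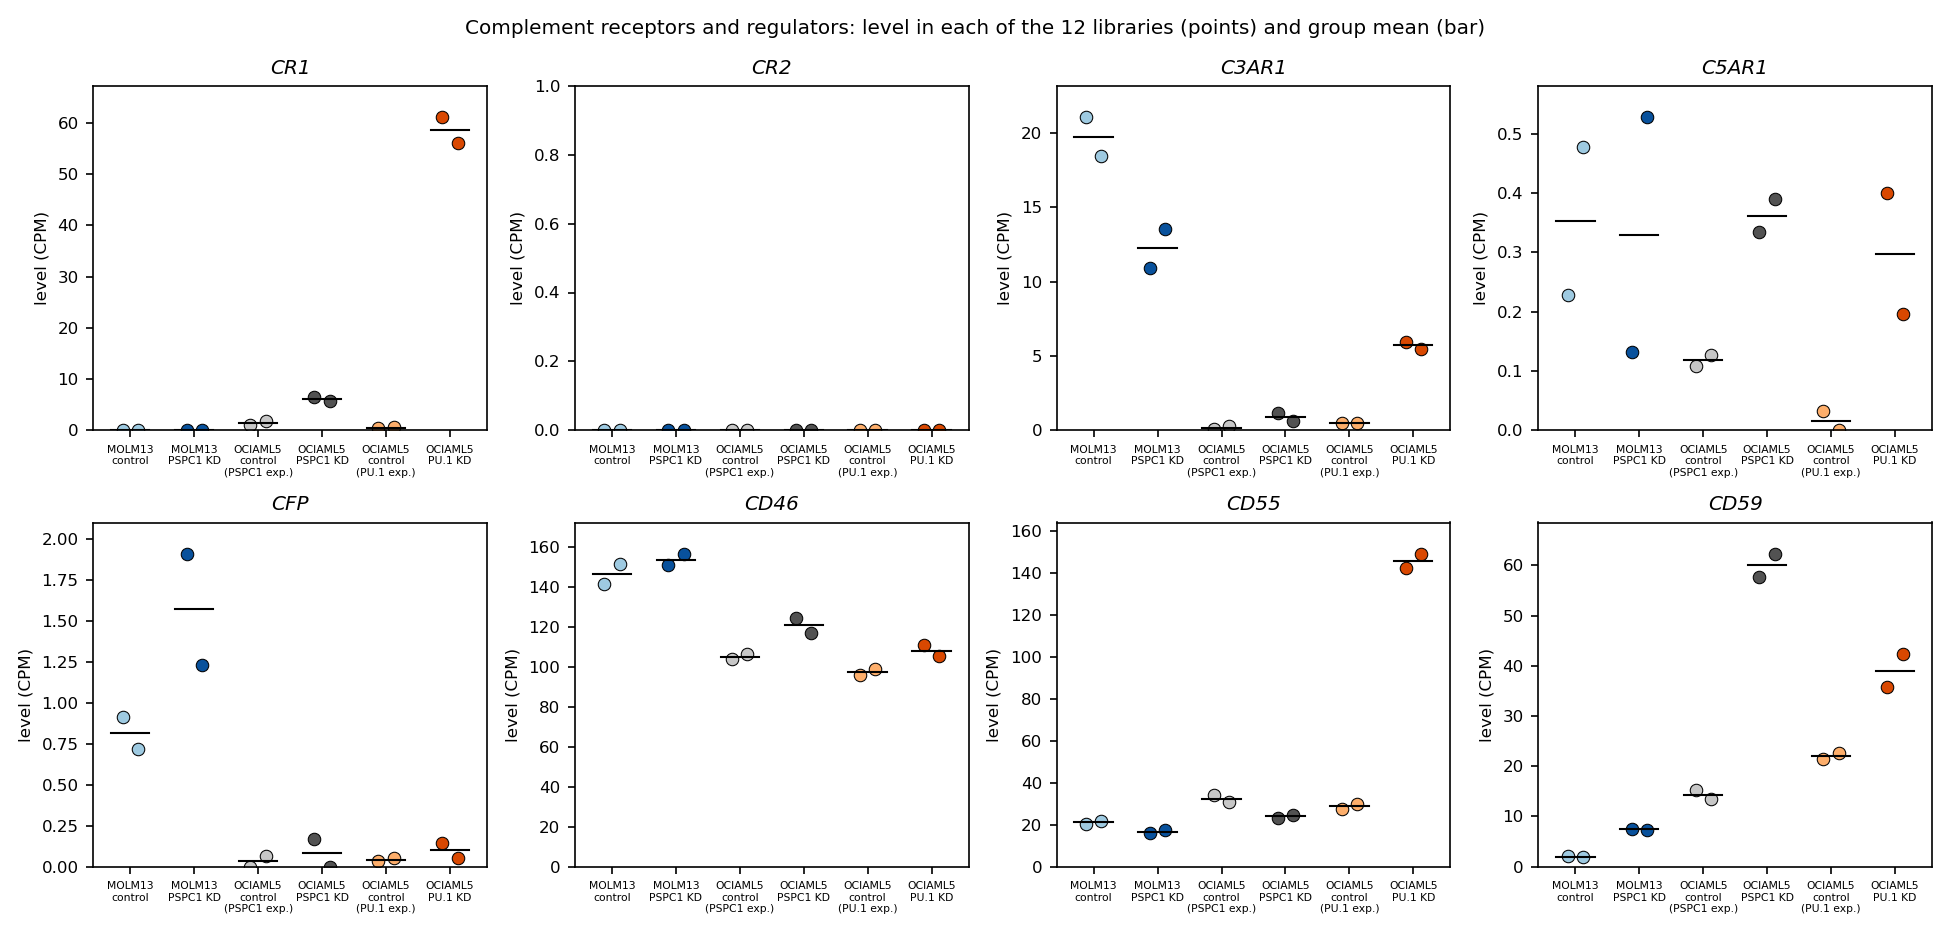
Level of each of the 8 genes in the 12 libraries, in CPM on linear axes that start at 0; points are libraries and bars the mean of 2. CR1 and CD55 are highest in both PU.1-knockdown libraries, CD59 in both PSPC1-knockdown libraries of OCIAML5 and C3AR1 in the MOLM13 controls, while CR2 is at 0 throughout.

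Among the receptors, CR1 had no count in MOLM13 and stood higher with either knockdown in OCIAML5. OCIAML5 controls of the PSPC1 experiment held 0.978 and 1.71 CPM (18 and 27 counts) and PSPC1-knockdown libraries 6.39 and 5.67 CPM (153 and 102 counts). Both knockdown libraries lay above both controls. The log2 fold change was 2.18 ± 0.39 (SE; 4.53-fold; adjusted p = 4.3e-06). Without each library in turn it was between 1.81 and 2.61. The controls of the PU.1 experiment held 0.443 and 0.530 CPM of CR1 (14 and 20 counts), and the libraries with PU.1 knocked down 61.1 and 56.1 CPM (1686 and 2011 counts) (log2 fold change 6.89 ± 0.14, SE; 118-fold). No control of either experiment came near the PU.1-knockdown level. In MOLM13 CR1 had no count in any of the 4 libraries, and 3 counts over a group would be 0.0776 CPM in the controls and 0.0931 CPM after PSPC1 knockdown. It gave no fold there, and the MOLM13 control level was at least 16.9-fold lower than that of the OCIAML5 controls, taking 3 counts over the group as the floor.

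CR1 has long internal repeats: 20.3% of the 100-base stretches of its longest transcript occur more than once in it, and 1.69% also occur in its neighbour CR1L. CR1L itself had 3 and 3 counts in the PU.1-knockdown libraries and 0 in the other 10. A gene on the opposite strand, AL137789.1, overlaps CR1, and the labels leave unstated whether the counting used the strand. AL137789.1 had 17 counts over the PU.1-knockdown libraries, 1 over the PSPC1-knockdown libraries of OCIAML5 and 0 in the other groups. CR2 had no count in any of the 12 libraries, which allows a group level of up to 0.0433 to 0.0931 CPM.

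C3AR1 moved in opposite directions in the 2 lines after PSPC1 knockdown. The MOLM13 controls held 21.1 and 18.5 CPM, and the level fell to 10.9 and 13.5 CPM, with no overlap (log2 fold change -0.69 ± 0.18, SE; adjusted p = 0.00086). In OCIAML5 it rose from 0.0544 and 0.253 CPM (1 and 4 counts) to 1.17 and 0.611 CPM (28 and 11 counts) (log2 fold change 2.60 ± 0.61, SE; adjusted p = 0.00025). The difference between the effects, MOLM13 minus OCIAML5, was -3.29 ± 0.62 on the log2 scale (SE; adjusted p = 3.2e-05). The rise in OCIAML5 rests on few counts: it was 1.84 without control replicate 1 (adjusted p = 0.017), 3.92 without control replicate 2 (adjusted p = 7.5e-05) and 2.01 without knockdown replicate 1 (adjusted p = 0.023). The difference was -2.54 without control replicate 1, -4.62 without control replicate 2 and -2.71 without knockdown replicate 1 of OCIAML5, with adjusted p of at most 0.0046. Even after its rise C3AR1 in OCIAML5 (0.890 ± 0.395 CPM) stayed far below its level in MOLM13 after knockdown (12.2 ± 1.84 CPM). Cells with PU.1 knocked down held 5.95 and 5.47 CPM and their controls 0.475 and 0.477 CPM (log2 fold change 3.57 ± 0.28, SE; 11.9-fold).

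C5AR1 stayed at the edge of detection, between 0 and 0.527 CPM in every library, and did not pass the filter on low counts. In MOLM13 its 2 control libraries together held 13 counts and the knockdown libraries 11, a ratio of 1.01 (95% interval 0.411 to 2.45, which covers counting error only, as do all intervals here). In OCIAML5 the counts were 4 in the controls and 15 after PSPC1 knockdown, a ratio of 3.06 (0.975 to 12.7) whose interval includes no change. In the PU.1 experiment the controls held 1 count and the knockdown libraries 18.

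CFP, the properdin gene, was low in both lines, at 0.717 CPM or more in MOLM13 and 0.167 CPM or less in OCIAML5. MOLM13 controls held 0.913 and 0.717 CPM, and the 2 libraries with PSPC1 knocked down held 1.91 and 1.23 CPM. Although the groups did not overlap, the log2 fold change of 0.93 ± 0.62 (SE) missed the threshold (adjusted p = 0.21). In OCIAML5 1 count stood against 4 after PSPC1 knockdown (ratio 3.26, 0.323 to 161), and no change was detectable at this depth. The PU.1 experiment held 3 counts in the controls and 6 after knockdown. CFP overlaps AL009172.2 on its own strand.

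Of the membrane regulators, CD59 rose most clearly after PSPC1 knockdown. MOLM13 controls held 2.10 and 1.85 CPM and knockdown libraries 7.58 and 7.38 CPM (log2 fold change 1.91 ± 0.20, SE; 3.75-fold; adjusted p = 6.5e-12). OCIAML5 controls held 15.2 and 13.4 CPM and knockdown libraries 57.7 and 62.3 CPM (log2 fold change 2.06 ± 0.11, SE; 4.18-fold; adjusted p = 2.5e-21). The groups were far apart in both lines, and the effects differed by -0.16 ± 0.24 on the log2 scale (SE; adjusted p = 0.70), MOLM13 minus OCIAML5. With PU.1 knocked down CD59 was at 35.7 and 42.3 CPM, above the 21.4 and 22.7 CPM of its controls (log2 fold change 0.83 ± 0.081, SE). An overlapping locus, AL049629.2, which shares 7.06% of the 100-base stretches of CD59, had 0 counts in all libraries.

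CD55 fell a little after PSPC1 knockdown and stood higher after PU.1 knockdown. In OCIAML5 it fell from 34.0 and 30.6 CPM to 23.2 and 24.7 CPM (log2 fold change -0.43 ± 0.11, SE; adjusted p = 0.00054). In MOLM13 it fell from 20.4 and 21.9 CPM to 16.01 and 17.3 CPM (-0.34 ± 0.12, SE; adjusted p = 0.013). That smaller fall lost its call with DESeq2 (adjusted p = 0.052), without control replicate 2 (0.076) and without knockdown replicate 1 (0.089). With PU.1 knocked down CD55 was at 142 and 149 CPM, well above its controls at 27.6 and 29.7 CPM (log2 fold change 2.34 ± 0.058, SE; 5.08-fold). Within OCIAML5, then, CD55 lay below its controls in one experiment and above its own controls in the other, and the 2 effects were not tested against each other.

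CD46 was the steadiest of the genes with ample counts. The MOLM13 controls held 141 and 151 CPM and their PSPC1-knockdown counterparts 151 and 157 CPM, overlapping groups (log2 fold change 0.07 ± 0.053, SE; adjusted p = 0.26). In OCIAML5 it rose from 104 and 106 CPM to 125 and 117 CPM (0.20 ± 0.055, SE; adjusted p = 0.0016), a call lost without knockdown replicate 1 (0.15; adjusted p = 0.077). The PU.1-knockdown libraries held 111 and 105 CPM, against 95.9 and 98.8 CPM in their controls (0.15 ± 0.051, SE). Scaling by library size alone puts that last value at 0.30, a shift as large as the effect itself.

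**Figure D2:**
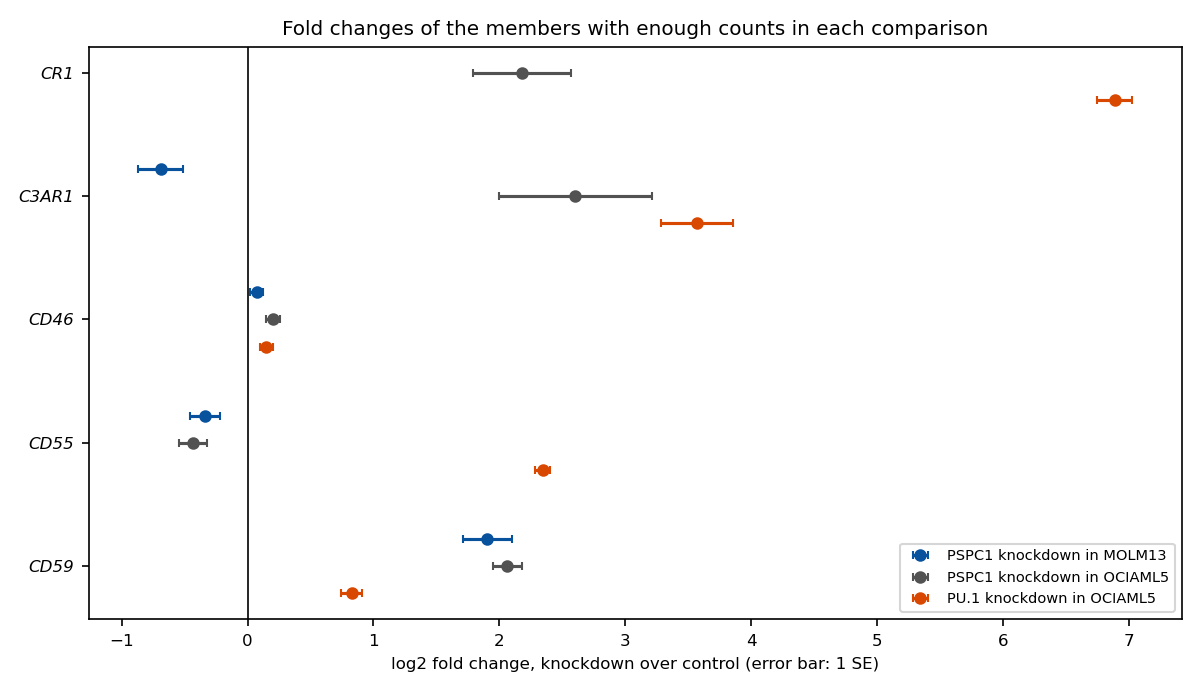
Log2 fold change with 1 SE (horizontal axis) of CR1, C3AR1, CD46, CD55 and CD59, for PSPC1 knockdown in each line and PU.1 knockdown in OCIAML5. CR1 has no point in MOLM13, and CFP, tested in the PSPC1 experiment alone, is not drawn. CD59 lies near 2 for PSPC1 knockdown in both lines, C3AR1 lies on opposite sides of 0, and CR1 reaches 6.89 for PU.1 knockdown.

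Counted together, 6 of the 8 genes passed the filter on low counts in the PSPC1 experiment and 5 did in the PU.1 experiment. CR2 and C5AR1 failed it in both and CFP in the latter. In MOLM13 CD59 rose and C3AR1 and CD55 fell, 3 of the 5 that passed the filter and held counts in that line. Of all 16457 genes tested, 57.0% were called there (27.6% higher, 29.5% lower). In OCIAML5 CR1, C3AR1, CD46 and CD59 rose and CD55 fell, 5 of 6, where 56.0% of all genes were called (27.5% higher, 28.4% lower). The difference between the lines was called for C3AR1 alone of 5, where 30.5% of all genes were called. With a 2-fold minimum, CD59 remained in MOLM13, where 3425 of all 16457 genes did. In OCIAML5 CR1, C3AR1 and CD59 remained, where 3136 of 16457 did. In the PU.1 experiment 60.4% of 16861 genes were called (29.6% higher, 30.9% lower), or 6583 higher and 3995 lower with scaling by library size alone in place of 4983 and 5206. That scaling raised the median of all genes by 0.15 on the log2 scale, and the 5 genes kept their direction under it.

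The control libraries of the 2 lines already differed in this set. MOLM13 held more C3AR1 and CD46, and OCIAML5 more CD55 and CD59; all 4 were called, where 60.6% of all genes were (30.0% higher and 30.7% lower in MOLM13). CR1 and CFP passed the filter through 1 line only and are given as counts with no test. For C3AR1 770 counts stood against 5, a ratio of 136 (58.2 to 421). In edgeR its log2 difference was 7.01 ± 0.36 (SE; adjusted p = 3.8e-23). It was 6.26 without OCIAML5 control replicate 1 and 8.34 without replicate 2. The OCIAML5 controls held 1 and 4 counts of C3AR1, so between the controls its call too rests on the MOLM13 side. CFP had 32 counts against 1, a ratio of 28.3 (4.73 to 1154), and CR1 0 against 45. CD59 was 7.19-fold lower in MOLM13 (log2 difference -2.85 ± 0.18, SE; adjusted p = 9.7e-20), CD55 was also lower (-0.62 ± 0.11, SE; adjusted p = 3.2e-06) and CD46 higher (0.48 ± 0.055, SE; adjusted p = 1.3e-10). The line, its medium and GM-CSF cannot be told apart here.

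Per kb of exon, the 3 membrane regulators kept the order CD46, CD55, CD59 in 4 of the 6 groups. In the MOLM13 controls the levels were 43.4 ± 2.10, 5.30 ± 0.266 and 0.241 ± 0.0214 CPM per kb, and in the OCIAML5 controls of the PSPC1 experiment 31.2 ± 0.484, 8.11 ± 0.608 and 1.74 ± 0.156 CPM per kb. After PSPC1 knockdown in OCIAML5 CD59 (7.31 ± 0.393 CPM per kb) passed CD55 (6.02 ± 0.267 CPM per kb). After PU.1 knockdown CD55 (36.6 ± 1.18 CPM per kb) passed CD46 (32.0 ± 1.17 CPM per kb). CR1 stood at 5.89 ± 0.358 CPM per kb there, above CD59 (4.75 ± 0.566 CPM per kb), and at 0.0489 ± 0.00616 CPM per kb in the controls. C3AR1 stood above CD55 per kb in both MOLM13 groups, at 9.46 ± 0.878 in the controls and 5.86 ± 0.879 after knockdown. These lengths take all exons of a gene together, so a shorter transcript in use would place a gene higher.

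**Figure D3:**
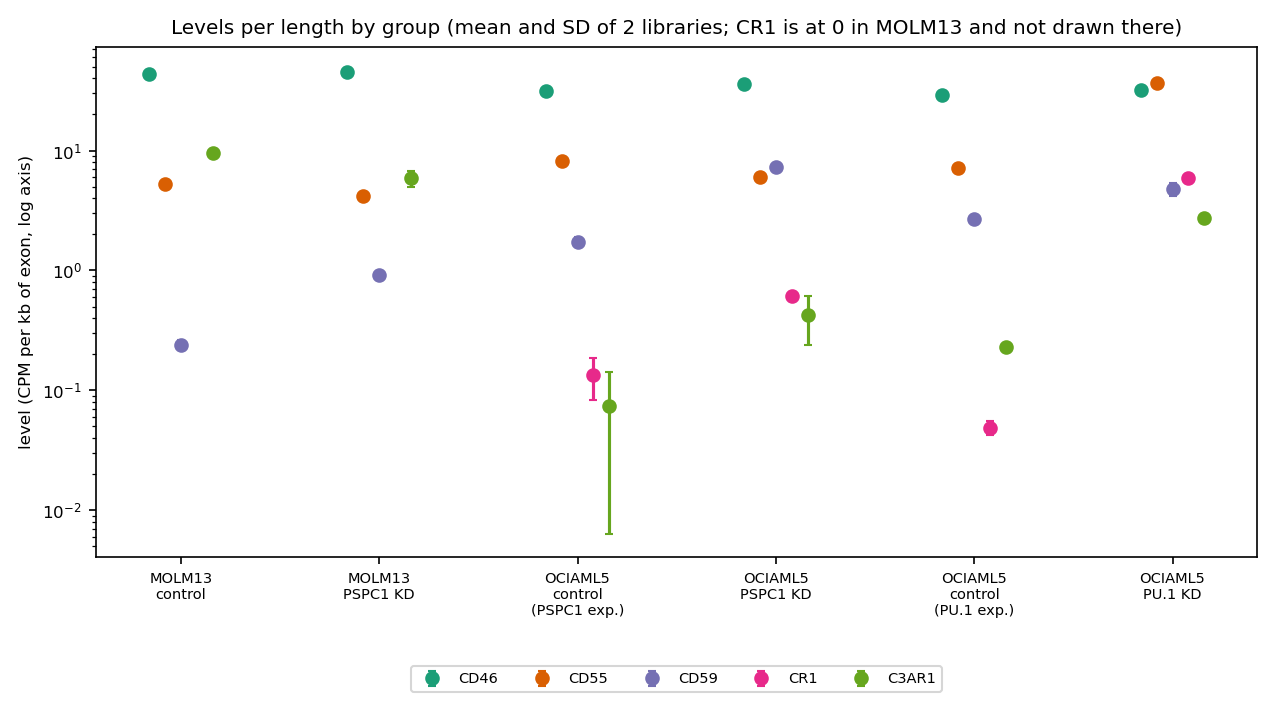
Mean level per kb of exon (log axis) in the 6 groups, with the SD of 2 libraries, for CD46, CD55, CD59, CR1 and C3AR1. CD46 leads in 5 groups and CD55 in PU.1-knockdown OCIAML5, while CR1 climbs from the lowest of the 5 in the second set of OCIAML5 controls to a place behind CD55 and CD46 after knockdown.

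Of 12 protein-coding genes within 500 kb of either end of CR1, 4 are the complement genes above, and 4 of the 8 others had enough counts: PFKFB2, YOD1, CD34 and PLXNA2. None of these 4 was called higher in any of the 3 knockdowns. Of all genes, 27.6% (PSPC1, MOLM13), 27.5% (PSPC1, OCIAML5) and 29.6% (PU.1) were called higher, so 4 genes are too few to set apart from these shares. After PU.1 knockdown 3 of the 4 were called lower, where 30.9% of all genes were. YOD1, a deubiquitinase, fell from 88.0 to 54.5 CPM (log2 fold change -0.69; adjusted p = 5e-17). CD34, the stem cell surface marker, fell from 4.12 to 1.28 CPM (-1.70; adjusted p = 2.8e-08), and PLXNA2, a semaphorin receptor, from 32.8 to 19.0 CPM (-0.78; adjusted p = 9.6e-13). After PSPC1 knockdown in OCIAML5 CD34 fell from 2.08 to 0.681 CPM (-1.63; adjusted p = 0.020) and the other 3 were not called. In MOLM13 PLXNA2 fell from 0.641 to 0.253 CPM (-1.36; adjusted p = 0.033). The shares of all genes called lower after PSPC1 knockdown were 28.4% in OCIAML5 and 29.5% in MOLM13.

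**Figure D4:**
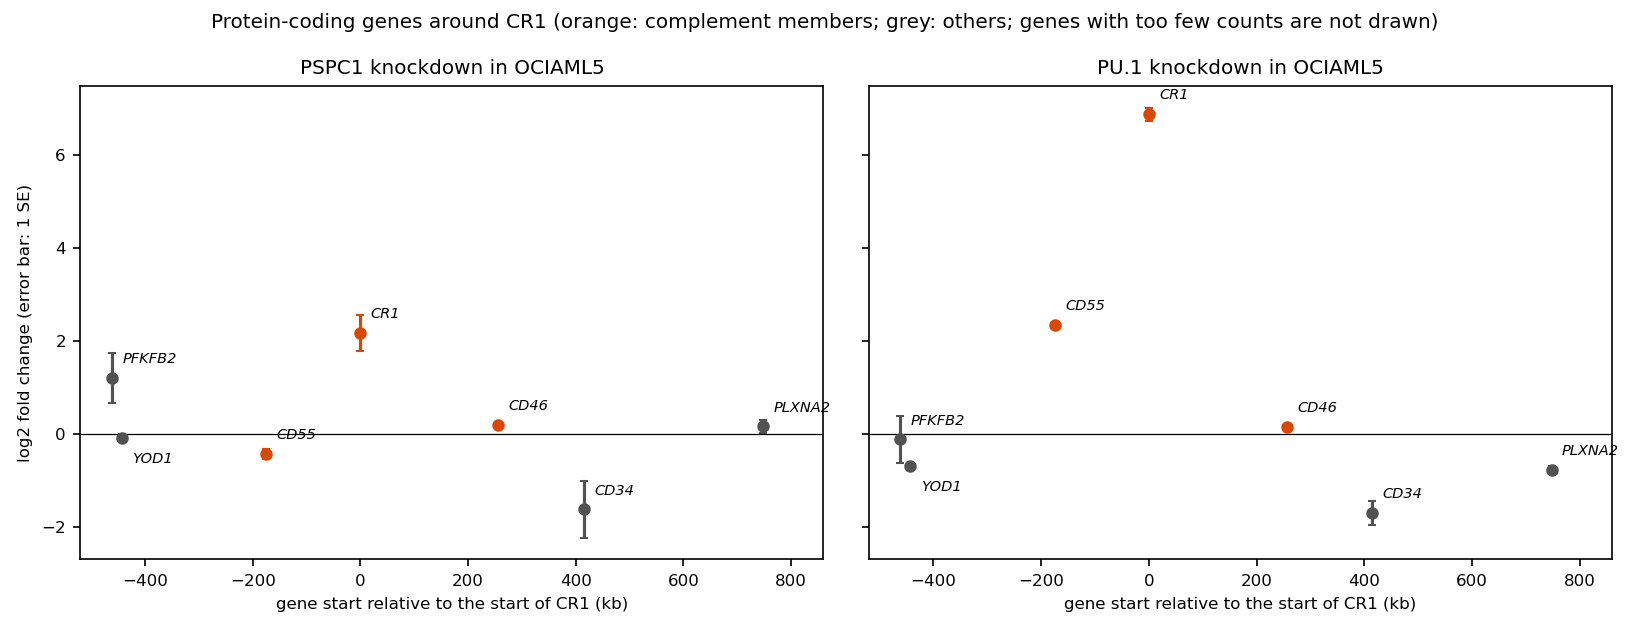
Log2 fold change with 1 SE (vertical axis) against the distance of each gene's start from that of CR1 in kb, for PSPC1 and PU.1 knockdown in OCIAML5. CR1 and CD55 stand above 0 after PU.1 knockdown while YOD1, CD34 and PLXNA2 lie below it.

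Over the 12 libraries the profile of CR1, as log2(CPM + 1), was most like that of THBS1 (Pearson r = 0.981 among 17648 genes), AC009495.3 (0.980), SLC18B1 (0.970), ZEB1-AS1 (0.969) and GID4 (0.964). All 5, like CR1, were highest in the 2 PU.1-knockdown libraries, so this is a description of shared libraries. THBS1, the gene of thrombospondin, stood at 181 and 183 CPM in them and between 0 and 6.06 CPM elsewhere.

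Most other complement genes were hardly transcribed in these lines. Of 52 further genes in 4 lists, 17 were tested for PSPC1 knockdown in MOLM13 (9 higher, 5 lower). In OCIAML5 18 were tested for PSPC1 knockdown (8 higher, 5 lower) and 18 for PU.1 knockdown (8 higher, 6 lower). Of all genes, 27.6%, 27.5% and 29.6% were called higher in these comparisons and 29.5%, 28.4% and 30.9% lower. Single lists held 2 to 8 tested genes, too few to set apart from these shares.

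In the classical and lectin pathways, which start from antibody or sugar recognition, 4 of 17 genes could be tested for PSPC1 knockdown. Of these 3 rose in MOLM13 and 2 in OCIAML5, where 27.6% and 27.5% of all genes were called higher. The medians were 1.20 and 1.39 on the log2 scale beside 0.01 and 0.02 for all genes. These 4 genes are too few to set apart from all genes. C1RL, a protease like C1r, rose from 25.4 to 57.0 CPM in MOLM13 (1.17; adjusted p = 6.8e-16), from 18.7 to 36.8 CPM in OCIAML5 (0.97; adjusted p = 2.7e-12) and from 14.0 to 26.7 CPM after PU.1 knockdown (0.94; adjusted p = 3.7e-14). MASP2, the protease of the lectin pathway, rose from 3.37 to 7.86 CPM in MOLM13 and from 2.26 to 7.93 CPM in OCIAML5 after PSPC1 knockdown (1.24 and 1.81; adjusted p = 1.9e-05 and 3.1e-08). C1S, which cleaves C4 and C2, fell after PU.1 knockdown from 3.91 to 1.17 CPM (-1.74; adjusted p = 3.2e-08). For PU.1 knockdown 5 of the 17 were tested, 2 rose and 1 fell, where 29.6% of all genes were called higher and 30.9% lower. The median was 0.94 beside 0.02 for all genes.

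In the alternative and terminal pathway, 3 of 10 genes were tested for PSPC1 knockdown: CFD, C3 and C5. CFD, the protease that activates factor B, rose in all 3 knockdowns, from 336 to 623 CPM in MOLM13 (0.89; adjusted p = 3.3e-22), from 13.1 to 20.5 CPM in OCIAML5 (0.66; adjusted p = 3.4e-08) and from 24.7 to 194 CPM after PU.1 knockdown (2.98; adjusted p = 8.3e-51). C3, the central protein of the cascade, fell in MOLM13 from 84.1 to 31.8 CPM (-1.41; adjusted p = 3.1e-18) and stayed under 1 CPM on average in every OCIAML5 group. C5 rose in MOLM13 from 12.4 to 22.2 CPM and fell in OCIAML5 from 15.2 to 4.58 CPM, effects that differed by 2.56 ± 0.23 (SE; adjusted p = 7.8e-13). After PU.1 knockdown C5 fell from 11.8 to 3.45 CPM (-1.77; adjusted p = 7.2e-16). Of the 4 genes tested there, 2 rose and 1 fell, where 29.6% of all genes were called higher and 30.9% lower.

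Among 14 soluble regulators, 2 were tested for PSPC1 knockdown in MOLM13 (1 higher, 1 lower), 3 in OCIAML5 (2 higher, 1 lower) and 2 for PU.1 knockdown (both higher). CLU, clusterin, a binder of the terminal complex, rose in MOLM13 from 0.703 to 2.12 CPM (1.52; adjusted p = 0.0004) and fell in OCIAML5 from 21.98 to 6.60 CPM (-1.75; adjusted p = 3.7e-11). The effects differed by 3.27 ± 0.41 (SE; adjusted p = 8.2e-09). After PU.1 knockdown CLU rose from 43.5 to 93.6 CPM (adjusted p = 1.5e-26).

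Of 11 other receptors and membrane regulators, 8 were tested for PSPC1 knockdown, with 3 higher and 3 lower in each line, and 7 for PU.1 knockdown, with 2 higher and 4 lower. CD93, a C1q-binding lectin-like protein of myeloid cells, fell in all 3 knockdowns: from 93.3 to 40.3 CPM in MOLM13, from 86.3 to 30.1 CPM in OCIAML5 and from 214 to 107 CPM after PU.1 knockdown, with adjusted p of at most 1e-19. THBD, thrombomodulin, fell after PSPC1 knockdown from 62.9 to 23.3 CPM in MOLM13 (-1.43; adjusted p = 6.8e-16) and from 3.998 to 2.18 CPM in OCIAML5 (-0.91; adjusted p = 0.00044). C1QBP, a mitochondrial protein that binds C1q, fell in all 3, with log2 fold changes of -0.68 and -0.35 after PSPC1 knockdown in MOLM13 and OCIAML5 and -0.77 after PU.1 knockdown (adjusted p of at most 3.9e-10).

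CD55 and CD59 reach the surface on the GPI anchor, and 27 of 28 genes of its synthesis were tested. After PSPC1 knockdown 10 rose and 6 fell in MOLM13 and 6 rose and 6 fell in OCIAML5; after PU.1 knockdown 11 rose and 6 fell. That left 11, 15 and 10 of the 27 not called, where 57.0%, 56.0% and 60.4% of all genes were called. The medians were 0.10, -0.0016 and 0.12 on the log2 scale beside 0.01, 0.02 and 0.02 for all genes. PIGA, part of the enzyme of the first step, fell after PU.1 knockdown from 21.3 to 9.29 CPM (-1.19; adjusted p = 1.2e-15) and in MOLM13 from 13.9 to 10.6 CPM (-0.39; adjusted p = 0.029). GPAA1, a subunit of the transamidase that attaches the anchor, fell after PU.1 knockdown from 133 to 91.0 CPM (-0.55; adjusted p = 5.6e-14). PIGM, a mannosyltransferase, was at 32.0 CPM in the MOLM13 controls and 67.4 CPM in the OCIAML5 controls of the PSPC1 experiment (-1.08; adjusted p = 4.9e-16).

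**Figure D5:**
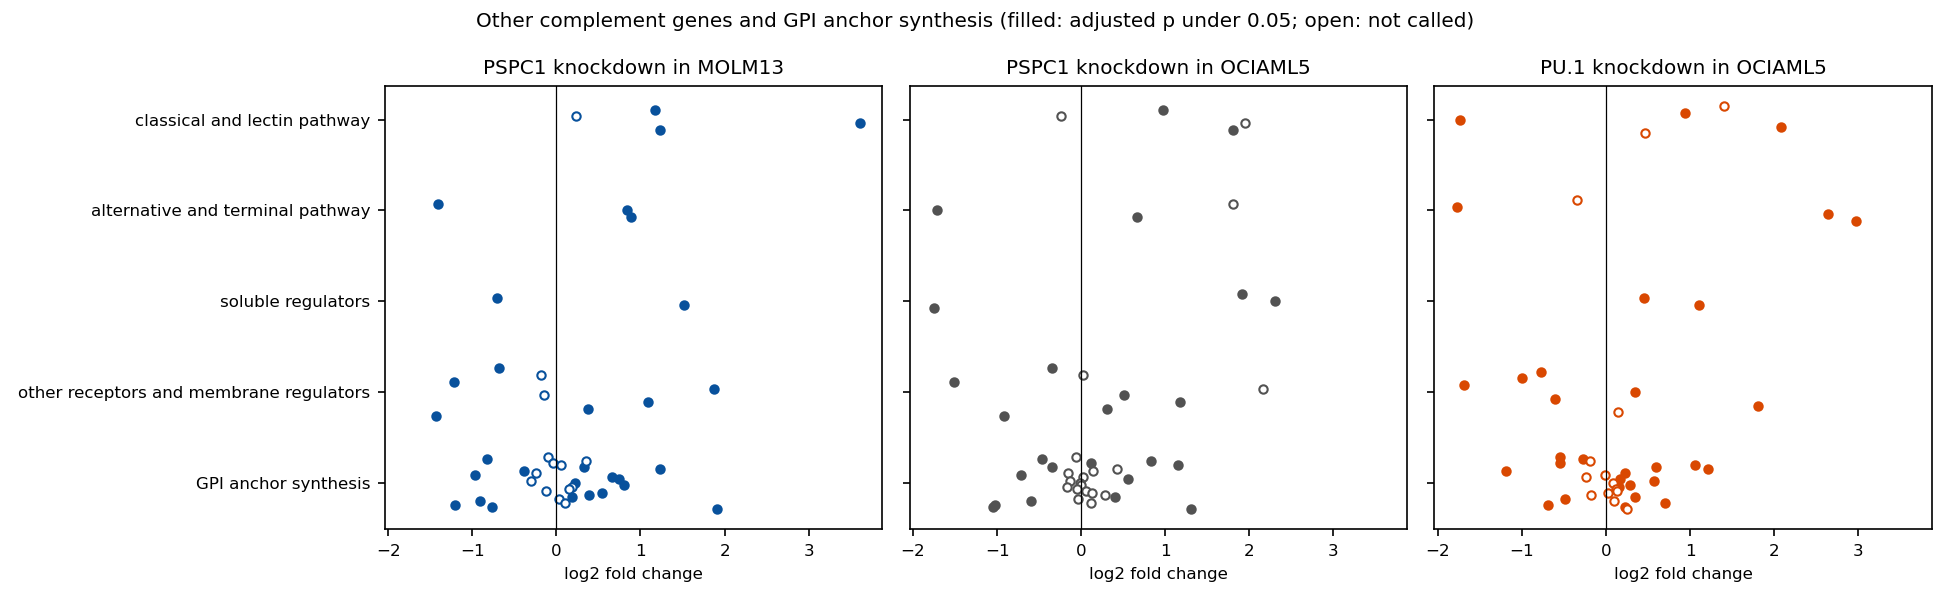
Log2 fold change (horizontal axis) of the tested genes of 4 complement lists and of GPI anchor synthesis, 1 point per gene, filled where called, for each knockdown. The GPI anchor genes have medians of at most 0.12, with genes called on both sides of 0 in each knockdown. Over the 4 complement lists genes are also called on both sides in each knockdown. Single lists can lie on 1 side: no classical and lectin gene is called lower after PSPC1 knockdown. The same holds for the soluble regulators after PU.1 knockdown.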

How the data were processed

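RNA was measured by sequencing of 12 libraries made with a stranded mRNA kit, per the labels' protocols. The authors deposited unnormalized counts for each gene in 2 tables, 1 for the PSPC1 experiment (8 libraries) and 1 for the PU.1 experiment (4 libraries). The submitters' processing notes name HTSeq 2.0.2, STAR 2.7.10a, DESeq2 1.36.0 and Trim Galore 0.6.7, and the build GRCh38. Not given in the sources used here are the annotation release, the strand setting and the treatment of reads with several matches.

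Counts were fitted in R 4.3.3 with edgeR 4.0.16 (filterByExpr, TMM scaling, quasi-likelihood F test), as 1 model of 4 groups for the PSPC1 experiment (4 residual degrees of freedom) and 1 of 2 groups for the PU.1 experiment (2 residual degrees of freedom). Benjamini-Hochberg adjustment of the p-values ran over all 16457 or 16861 genes tested, with a threshold of 0.05. The SE of a log2 fold change was derived from the F test, as its size over the square root of F. This holds also where no p-value is given. The fit was tested on simulated data with seeded changes. Ratios of summed counts have exact 95% intervals, and the floor was 3 counts over a group.

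The members and the gene lists were chosen with earlier results of these data known. Named genes were the members, the targeted genes, the 3 genes of each list with the smallest adjusted p, the tested genes within 500 kb of CR1 and the 5 genes most like CR1 with a pseudocount of 1 CPM. Gene positions and exon lengths are from GENCODE v29, whose symbols matched 55237 of the 60648 in the tables and all 158 looked up. The alternatives were DESeq2 1.42.0, RLE factors, library size alone, no low-count filter, 1 CPM in at least 2 libraries, a replicate block, an adjusted p of 0.01, a 2-fold minimum, the 4 libraries of a line alone and leaving out each library. Of the soluble regulators only 1 gene is named, and the others that the rule picks are not reported here. Protein levels and isoforms were not analysed here.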

Additional observations from a re-analysis of the deposited data

Results flagged for a closer look

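The effect of PSPC1 knockdown on C3AR1 differed between the lines, by -3.29 on the log2 scale (MOLM13 minus OCIAML5; edgeR, adjusted p = 3.2e-05). Both MOLM13 knockdown libraries lay below both controls and both OCIAML5 knockdown libraries above both of theirs. The OCIAML5 controls held 1 and 4 counts of the gene.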

How the results depend on the processing

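With a minimum of 2-fold beside the adjusted p of 0.05, fewer genes were called for PSPC1 knockdown. They were 3425 of 16457 in MOLM13 and 3136 of 16457 in OCIAML5, and the members called were 1 of 5 and 3 of 6. Without each library in turn, 8192 to 8387 genes were called in MOLM13, 8055 to 8418 in OCIAML5, 8765 to 9443 for PU.1 knockdown, 4354 to 4832 for the difference between the lines' effects and 8854 to 9364 between their controls. The members called were then 2 to 3 in MOLM13, 4 to 5 in OCIAML5 and 1 for the difference. CFP turned direction with its few counts. Leaving out a library, its log2 change in OCIAML5 ran from -2.36 (without PSPC1-knockdown replicate 1) to 3.90, and the difference between the lines from -2.98 to 3.28 (without that same library), with 0.41 without OCIAML5 control replicate 1. Library numbers did not pair the samples, since the deviations of same-numbered libraries correlated between -0.011 and 0.016. A replicate block gave 9240, 9060 and 4925 calls in the PSPC1 experiment (MOLM13, OCIAML5 and their difference), 9817 between the controls and 9941 for PU.1 knockdown, and it changed no call of a member. Scaling by library size alone moved the PU.1 log2 changes of CR1 to 7.04, C3AR1 to 3.72, CD55 to 2.50 and CD59 to 0.98. Leaving an arm with 1 library assumes that it varies like the other groups.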

Other observations

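OCIAML5 controls were sequenced in both experiments, and the 2 sets of 2 libraries differed in these genes. CR1 stood at 1.34 ± 0.515 CPM in the PSPC1 experiment and 0.487 ± 0.0613 CPM in the PU.1 experiment (SD, n = 2). C3AR1 stood at 0.154 ± 0.140 and 0.476 ± 0.00144 CPM and CD59 at 14.3 ± 1.28 and 22.05 ± 0.905 CPM. CD55 was at 32.3 ± 2.42 and 28.7 ± 1.48 CPM and CD46 at 105 ± 1.63 and 97.3 ± 2.06 CPM. The tables were scaled separately, and these gaps were not tested. Both PSPC1-knockdown libraries of OCIAML5 lay above all 4 controls for CR1, C3AR1, CD46 and CD59 and below all 4 for CD55. The share of all genes that lie apart in this way was not counted. Against the controls of its own experiment, 56.0% of 16457 genes were called for this knockdown.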
